A study of Mus musculus with 6 samples.

Results

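The linker and variant histone genes described here are 10 genes, H1f0, Hist1h1c, H3f3b, H3f3a, H2afz, H2afv, H2afx, H2afj, H2afy and Hist1h2bc, chosen by name and matched by symbol to the 52997 genes of the count table. All 10 were found and all 10 passed the filter on low counts. Their RNA was compared between CD4+ T cells from pooled lymph nodes of infant mice aged 10 days and of adult mice aged 7 weeks. There were 3 libraries per age, and each was treated as a separate mouse. Both ages carried the Foxp3-GFP allele on C57BL/6, so that cells that express Foxp3, the factor of regulatory T cells, show a green fluorescent reporter. The series calls the cells naive and the library titles call them Tconv, and neither states which surface markers were gated. Each library was made from 1000 cells that went through the sorter 2 times, by copying polyadenylated RNA from an oligo(dT) primer and sequencing paired reads of 25 bases. No other difference between the ages is labelled, so age and anything handled together with age cannot be told apart.

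DNA in the nucleus is wound around octamers of the core histones H2A, H2B, H3 and H4, and linker histones of the H1 family bind where the DNA enters and leaves the octamer. Most histone genes are transcribed in S phase, and their messages end in a short stem-loop in place of a poly(A) tail. Many variant histones are made outside S phase from polyadenylated messages and are placed into chromatin by their own chaperones. They can thus replace the canonical forms in cells that do not divide, as naive T cells mostly do not.

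The library totals ran from 4115742 to 4739304 counts in infant and from 3421253 to 4887371 in adult libraries. Levels are given as CPM, the count scaled to the library's total over tested genes after correction by TMM, a method that evens out composition between libraries. Adult replicate 2 stood apart, with 36373 genes detected, while the other 5 libraries had 17992 to 21840. Over 10996 untested autosomal coding genes it held 1.85 counts per kb of exon, against 0.186 to 0.349 in the others. The fold changes of the 10 genes, the ratios between them and the counts of genes passing were also computed without it, and the other values below were not. T cell genes were present at both ages, with Cd4 at 867 ± 10.4 CPM in infant and 979.9 ± 136 CPM in adult libraries (mean ± SD, n = 3 each). Summed over 7 marker genes of natural killer cells, the level was 27.1 to 36.4 CPM in infant and 103 to 116 CPM in adult libraries. Most of it came from Prf1 and Klrd1, the only 2 of the 7 that were tested, both lower in every infant library. The others, named after their values were seen, had few counts. Ncr1 was at 0 in all 6 libraries. Gzma had 1, 5 and 5 counts in infant and 0, 2 and 1 in adult libraries. Klrb1c, Nkg7 and Klre1 had 18, 12 and 5 counts in adult replicate 2 and at most 2 in any other library. The 8 B cell markers summed to 670 to 801 CPM in infant and 710 to 830 CPM in adult libraries, most of it Ighm, and the 8 myeloid markers to 59.7 to 80.1 CPM and 55.5 to 89.8 CPM in infant and adult libraries. The part of such cells in the results below was not tested, and in these bulk libraries fewer cells of a type and less RNA per cell cannot be told apart.

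H1f0 and H3f3b rose in infant cells and the other 8 histone genes did not pass the test. H1f0, the replication-independent linker histone that accumulates in cells that have stopped dividing, was 5.71-fold higher, and H3f3b, a gene for the replacement histone H3.3, was 1.57-fold higher. In the quasi-likelihood test of edgeR, with p-values adjusted by Benjamini-Hochberg over 11681 tested genes, 2 of 10 histone genes were higher in infant cells at an adjusted p under 0.05 and 0 were lower, where 1.52% of all tested genes were higher and 2.11% lower. At an unadjusted p under 0.05, 3 of the 10 were higher and 1 was lower, where 17.3% of all tested genes passed that limit in either direction. DESeq2 and limma-voom each called the same pair, H1f0 and H3f3b, and 0 lower. The median log2 fold change (infant over adult) was 0.13 over the 10 genes and −0.0017 over all tested genes. In 4 of the 10 genes every infant value lay above every adult value, and in 1 every infant value lay below, where 11.2% and 11.6% of all tested genes did so. Since the 10 genes were chosen with earlier results of these data known, these counts describe the list and do not test it.

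**Figure D1:**
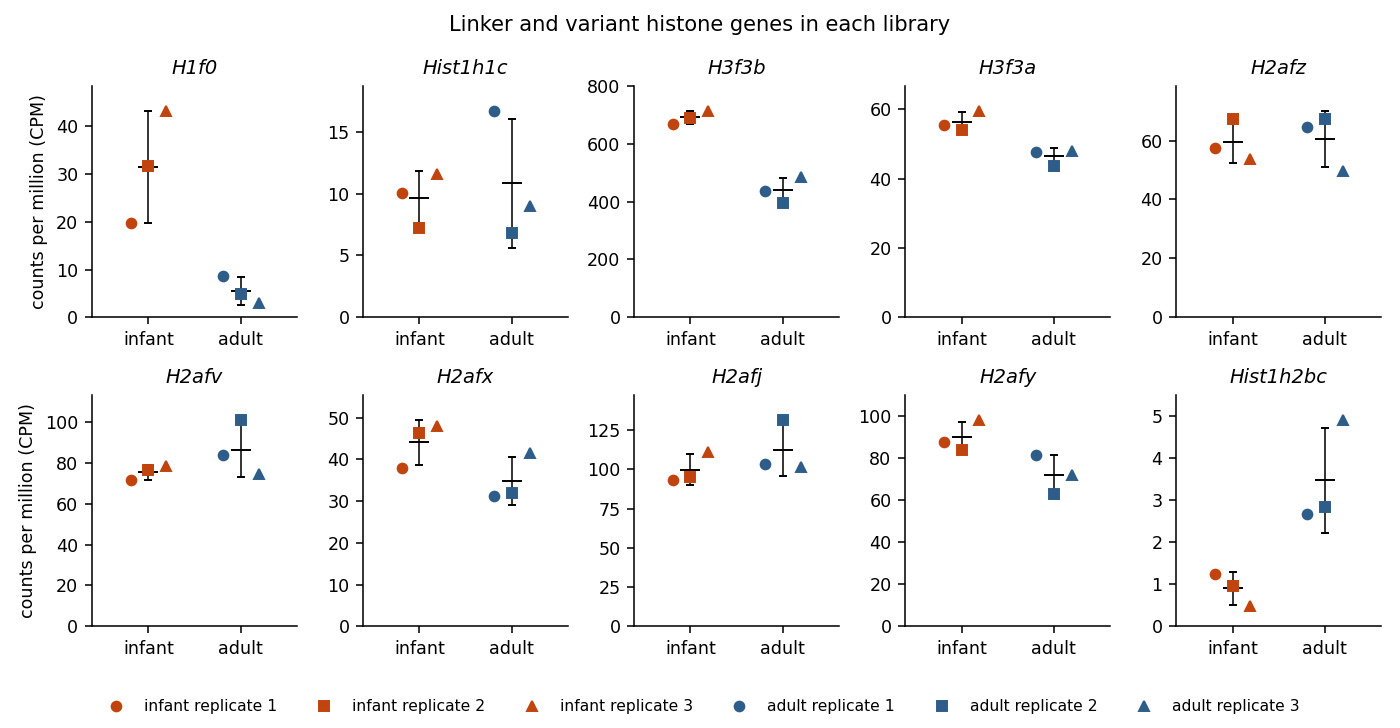
CPM of each of the 10 histone genes in the 3 infant libraries (left, orange) and the 3 adult libraries (right, blue), with 1 marker shape per replicate number and black bars for the mean ± SD. The vertical axes start at 0 and differ between panels. The groups are clear of each other in the panels of H1f0, H3f3b, H3f3a, H2afy and Hist1h2bc.

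H1f0 (ENSMUSG00000096210.2, chromosome 15, 79028450 to 79030504 on the plus strand, mm10) is a gene of a single exon. It was at 19.7, 31.7 and 43.2 CPM in infant replicates 1, 2 and 3, against 8.73, 4.83 and 2.99 CPM in adult replicates 1, 2 and 3. The lowest infant library was more than 2 times as high as the highest adult library, and the spread was wide within both ages. The means were 31.5 ± 11.8 CPM in infant and 5.52 ± 2.93 CPM in adult libraries (SD, n = 3 each), with a log2 fold change of 2.51 ± 0.38 (SE, edgeR adjusted p = 0.00192). These values rest on 404 counts in the infant and 67 in the adult libraries. In adult replicate 2 the 17 counts of H1f0 compared with 3.80 counts expected over its exon from that library's density at untested genes. Leaving out each library in turn gave log2 fold changes of 2.19 to 3.03 and adjusted p of 0.00259 to 0.0222 (edgeR). Of its distinct runs of 25 bases, 6.84% also occur in another annotated transcript, all in Gm49544, which overlaps H1f0 on the opposite strand and is not a row of the count table.

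The promoters of H1f0, H3f3b and H3f3a are shown because the first 2 genes rose together and the third makes the same protein as H3f3b. Each runs from 250 bases before to 50 after the RefSeq start (build GRCm38.p6). Capitals mark 5 motifs searched on both strands, with the share of 32851 promoter windows that hold each: CCAAT (37.4%), GGGCGG (35.7%), TATAAA (13.6%), the octamer ATTTGCAT (1.74%) and the H1 box AAACACA (7.18%). The H1f0 window, chr15:79027962-79028261 on the plus strand, ends before the GENCODE start of the gene, which lies 238 bases downstream of the RefSeq start. The H3f3b window is chr11:116024455-116024754 and the H3f3a window chr1:180813556-180813855, both on the minus strand. Their RefSeq starts lie 3458 bases (H3f3b) and 338 bases (H3f3a) downstream of the outermost GENCODE start.
H1f0: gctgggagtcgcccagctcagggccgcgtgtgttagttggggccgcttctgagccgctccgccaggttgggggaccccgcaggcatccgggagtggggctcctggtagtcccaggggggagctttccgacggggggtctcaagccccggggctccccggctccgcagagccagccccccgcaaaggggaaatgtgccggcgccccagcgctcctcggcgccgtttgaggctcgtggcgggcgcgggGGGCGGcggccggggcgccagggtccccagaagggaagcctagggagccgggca
H3f3b: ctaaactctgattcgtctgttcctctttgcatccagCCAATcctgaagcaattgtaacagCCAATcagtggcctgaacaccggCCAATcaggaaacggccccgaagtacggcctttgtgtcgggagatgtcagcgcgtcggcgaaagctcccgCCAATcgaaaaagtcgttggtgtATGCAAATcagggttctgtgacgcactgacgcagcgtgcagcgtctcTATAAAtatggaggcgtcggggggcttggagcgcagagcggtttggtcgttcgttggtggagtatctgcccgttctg
H3f3a: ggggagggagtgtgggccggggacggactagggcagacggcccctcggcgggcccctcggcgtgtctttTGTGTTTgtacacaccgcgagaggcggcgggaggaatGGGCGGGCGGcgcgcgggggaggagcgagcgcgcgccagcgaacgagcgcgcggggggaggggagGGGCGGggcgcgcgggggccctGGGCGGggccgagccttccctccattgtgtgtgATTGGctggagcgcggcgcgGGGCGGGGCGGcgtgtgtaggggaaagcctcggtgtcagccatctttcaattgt
The H1f0 window held 1 GGGCGG and none of the other 4. The H3f3b window held 4 CCAAT, 1 TATAAA and 1 octamer, whereas the H3f3a window held 6 GGGCGG, among them overlapping copies, 1 CCAAT and 1 AAACACA. Letters that match a motif describe the window and do not show a bound factor. Of the 10 genes, 8 had a promoter in the RefSeq set.

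Hist1h1c (ENSMUSG00000036181.2, chromosome 13, 23738808 to 23740367), the linker histone H1.2 of the large histone cluster, did not follow H1f0. It was at 10.1, 7.26 and 11.6 CPM in infant libraries, against 16.7, 6.82 and 8.97 CPM in adult libraries. The groups overlapped, with the highest and the lowest of the 6 values both in adults, and the log2 fold change was −0.17 ± 0.38 (edgeR adjusted p = 0.873), or 0.28 without adult replicate 1. The ratio of H1f0 to Hist1h1c counts was 1.95, 4.31 and 3.70 in infant libraries, against 0.525, 0.714 and 0.341 in adult libraries. H1f0 thus had more counts than Hist1h1c in each infant library and fewer in each adult library, a difference of 2.64 on the log2 scale that was not tested further, since 3 against 3 cannot give an exact permutation p under 0.1. Counts of different genes also depend on transcript length, which is 2055 bases for H1f0 and 1560 for Hist1h1c. Another linker histone of the cluster, Hist1h1e (H1.4), which was not among the 10, was at 15.9, 33.1 and 27.8 CPM in infant and 12.8, 13.1 and 18.6 CPM in adult libraries (log2 fold change 0.78 ± 0.29, edgeR adjusted p = 0.174). Hist1h1c shares 139 runs of 25 bases with Hist1h1e and 173 with Hist1h1d, so reads from those stretches cannot be assigned to 1 gene.

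The 3′ ends of the messages bear on what the oligo(dT) primer could copy. A histone stem-loop was found in the longest coding transcript (GENCODE M21) of 2 of the 10 genes, H2afx and Hist1h1c. Over 21877 coding genes the share was 0.206%, where a stem-loop in any coding transcript of a gene counted. Both sites are shown with 5 bases on each side and the 16 bases of the stem-loop in capitals, at chr9:44335235-44335260 and chr13:23739507-23739532 (mm10, plus strand).
H2afx: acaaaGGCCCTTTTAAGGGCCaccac
Hist1h1c: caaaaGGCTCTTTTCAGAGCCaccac
In both transcripts the annotation goes on for 822 bases (H2afx) and 840 bases (Hist1h1c) past the stem-loop, to a poly(A) signal within the last 50 bases. The protocol selects polyadenylated RNA, and which form of these 2 messages the counts come from was not tested. The other 8 genes had no stem-loop in the longest coding transcript, including Hist1h2bc. Of these, 5 had a poly(A) signal in its last 50 bases, H1f0, H2afz, H2afv, H2afj and H3f3a. None was found there for H3f3b, H2afy and Hist1h2bc. Only the letters AATAAA and ATTAAA were searched, so other signals and other transcripts of these genes were not covered.

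H3f3b and H3f3a encode the same protein, histone H3.3, which replaces canonical H3 at active genes outside S phase. H3f3b (ENSMUSG00000016559.14, chromosome 11, 116021912 to 116027962 on the minus strand) was at 670, 690.7 and 716 CPM in infant libraries, against 439, 395 and 484 CPM in adult libraries. All infant values were higher, and within the infant group they differed by little. The means were 692 ± 23.0 CPM in infant and 439 ± 44.6 CPM in adult libraries (SD, n = 3 each), a log2 fold change of 0.65 ± 0.10 (SE, edgeR adjusted p = 0.00245). Leaving out each library gave 0.59 to 0.73 with adjusted p of 0.00229 to 0.0381 (edgeR).

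H3f3a (ENSMUSG00000060743.12, chromosome 1, 180800832 to 180813943 on the minus strand) was at 55.5, 53.9 and 59.7 CPM in infant libraries, against 47.8, 43.8 and 48.1 CPM in adult libraries. Its infant values also lay above its adult values, but the difference did not pass (log2 fold change 0.28 ± 0.15, edgeR adjusted p = 0.391). For each count of H3f3a there were 12.1, 12.8 and 12.0 counts of H3f3b in infant libraries, against 9.17, 9.01 and 10.1 in adult libraries. The share of H3f3a was thus lower in each infant than in each adult library, by 0.38 on the log2 scale (infant −3.62 ± 0.05, adult −3.23 ± 0.09, SD, n = 3 each). The coding sequences of the pair, 408 bases without the stop codon, differ at 95 bases (76.7% identity), and no run of 25 bases is common to both genes, so reads could be told apart between them. Other annotated transcripts overlap in sequence. Of the runs of 25 bases, 15.7% of H3f3b and 32.4% of H3f3a occur in transcripts of further genes. The gene that shares most with H3f3b, Gm6485, had 7 counts in infant and 7 in adult libraries, against 9020 and 5468 of H3f3b. Gm17275, which overlaps H3f3a on the opposite strand, had 116 counts in infant and 104 in adult libraries, against 735 and 576 of H3f3a, and without strand in the protocol these reads cannot be separated from those of H3f3a.

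**Figure D2:**
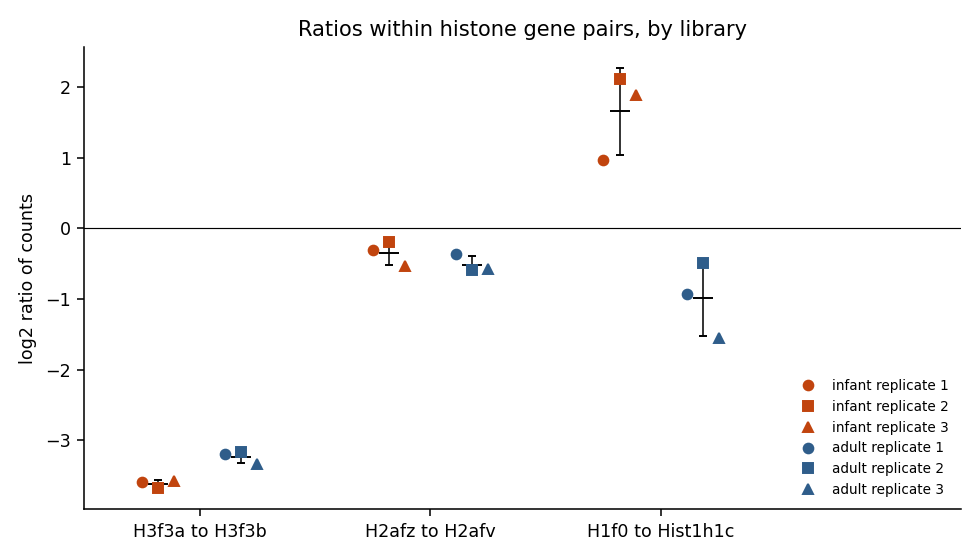
Log2 ratio of the raw counts of 2 genes in each library (0.5 added to each count), for H3f3a to H3f3b, H2afz to H2afv and H1f0 to Hist1h1c, infant libraries left of adult libraries within each pair and bars for the mean ± SD. The infant and adult points are apart for the first and the third pair and overlap for H2afz to H2afv.

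H2afz and H2afv encode the variants H2A.Z.1 and H2A.Z.2, which mark the nucleosomes next to active promoters. H2afz (ENSMUSG00000037894.13, chromosome 3, 137864487 to 137866922) was at 57.6, 67.2 and 53.6 CPM in infant libraries, against 64.7, 67.3 and 49.6 CPM in adult libraries. H2afv (ENSMUSG00000041126.16, chromosome 11, 6427229 to 6444443 on the minus strand) was at 71.4, 76.7 and 78.2 CPM in infant libraries, against 83.9, 101 and 74.4 CPM in adult libraries. Infant and adult values overlapped for both genes. Neither passed, with log2 fold changes of −0.02 ± 0.16 for H2afz (edgeR adjusted p = 0.967) and −0.19 ± 0.14 for H2afv (adjusted p = 0.547), and the sign of H2afz turned positive without adult replicate 2 (0.06). The log2 ratio of H2afz to H2afv counts was −0.31, −0.19 and −0.54 in infant libraries, against −0.37, −0.59 and −0.58 in adult libraries, which overlap. H2afz is the least certain of the 10 to count, since 77.6% of its runs of 25 bases recur in other annotated transcripts, 645 of them in Tmcc1, which had 427 counts in infant and 408 in adult libraries. H2afv shares 1.78% of its runs.

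H2afx and H2afj are H2A variants of unlike use. H2A.X carries the phosphorylation that marks DNA double-strand breaks, and H2A.J is known from human fibroblasts, where it accumulates in senescent cells. H2afx (ENSMUSG00000049932.3, chromosome 9, 44334694 to 44336077) was at 37.9, 46.2 and 48.1 CPM in infant libraries, against 31.3, 31.8 and 41.5 CPM in adult libraries. One adult value lay within the infant range, and the log2 fold change was 0.33 ± 0.19 (edgeR adjusted p = 0.403). H2afj (ENSMUSG00000060032.6, chromosome 6, 136808244 to 136810074) was at 93.4, 95.1 and 111 CPM in infant libraries, against 103.5, 131.5 and 101.5 CPM in adult libraries. The groups overlapped (log2 fold change −0.17 ± 0.14), and edgeR adjusted p ran from 0.517 to 0.922 with 1 library left out. The highest value was that of adult replicate 2. H2afx shares 11.9% and H2afj 11.5% of their runs of 25 bases with other transcripts, among them canonical H2A genes. Of those that share most with H2afx, the 3 with the most counts were named after their values were seen. Hist1h2ae had 20 counts in infant and 2 in adult libraries, Hist1h2ab had 17 in infant and 0 in adult libraries, and Hist1h2ac had 17 in infant and 19 in adult libraries. The part of shared reads in the value of H2afx was not tested. H2afj shares most with Gm44364, on its opposite strand, which had no count.

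H2afy (ENSMUSG00000015937.15, chromosome 13, 56073619 to 56136361 on the minus strand) encodes macroH2A1, an H2A with a large extra domain that is found on silent chromatin such as the inactive X chromosome. It was at 87.7, 83.9 and 98.3 CPM in infant libraries, against 81.7, 62.8 and 71.8 CPM in adult libraries. The infant values lay above the adult values by a narrow margin, and the difference did not pass after adjustment (log2 fold change 0.32 ± 0.14, unadjusted p = 0.0416, edgeR adjusted p = 0.265).

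Hist1h2bc (ENSMUSG00000018102.5, chromosome 13, 23684199 to 23692908), a core H2B gene of the large cluster, had the lowest counts of the 10. It had 6, 4 and 2 counts in infant libraries, against 11, 10 and 23 counts in adult libraries, or 0.902 ± 0.391 CPM and 3.47 ± 1.25 CPM in infant and adult libraries (SD, n = 3 each). All infant values were lower, yet the log2 fold change of −1.91 ± 0.64 did not pass (unadjusted p = 0.00940, edgeR adjusted p = 0.125). In adult replicate 2 its 10 counts compared with 2.14 expected from that library's density at untested genes, and without that library the log2 fold change was −2.03 ± 0.69 (edgeR adjusted p = 0.134). Leaving out each library in turn gave −2.21 to −1.57. Of its runs of 25 bases, 34.0% occur in transcripts of other genes, 1287 in number. Those that share most are other H2B genes, and single H2B genes are therefore uncertain here.

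**Figure D3:**
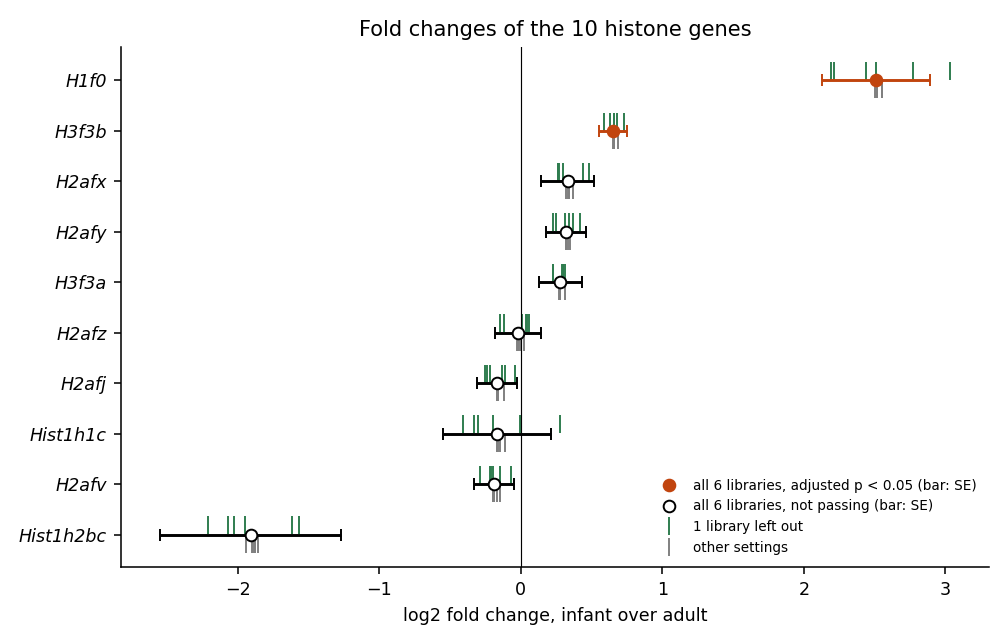
Log2 fold change (infant over adult) of the 10 histone genes. Circles and bars give the estimate and its SE from all 6 libraries, filled for the 2 genes that passed, green ticks above give the 6 fits with 1 library left out, and grey ticks below give the other settings. H1f0 at 2.51 and H3f3b at 0.65 stay to the right of 0 in all fits, and the ticks of H2afz and Hist1h1c lie on both sides of 0.

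Per kb of the longest coding transcript, H3f3b was the highest of the 10 at both ages, with 275 ± 9.13 CPM per kb in infant and 175 ± 17.7 in adult libraries (SD, n = 3 each), clear of all others. In infant cells H2afz (55.6 ± 6.55), H2afj (54.5 ± 5.27), H2afv (46.2 ± 2.20) and H2afy (44.0 ± 3.64) came next, where H2afz and H2afj had overlapping ranges and so had H2afv and H2afy. H2afx (31.8 ± 3.91), H3f3a (19.8 ± 1.04), H1f0 (15.3 ± 5.73), Hist1h1c (6.18 ± 1.41) and Hist1h2bc (0.781 ± 0.338) followed, with overlap between H3f3a and H1f0 alone. In adult cells the first 7 were the same genes, with H2afj, H2afz and H2afv in overlapping ranges, while H1f0 was last, at 2.68 ± 1.42 CPM per kb, and its range of 1.46 to 4.25 overlapped the 2.31 to 4.25 of Hist1h2bc. H1f0 was thus the gene whose place in the order differed most, at place 8 in infant and 10 in adult cells. The spread between libraries of 1 age was smallest for H3f3b in infant libraries (coefficient of variation 3.32%) and largest for H1f0 in adult libraries (53.1%).

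Some proliferation genes rose in infant cells beside H1f0. Of 25 tested genes of the cell cycle, 4 rose, 0 fell and 21 did not pass (edgeR; 10 were higher and 3 lower at an unadjusted p under 0.05, and 0 were lower by DESeq2 or limma-voom), with a median log2 fold change of 1.26. Of all tested genes 1.52% were higher and 2.11% lower in edgeR after adjustment, and 17.3% had an unadjusted p under 0.05 in either direction. In 8 of the 25 the fold change was negative. The 3 lower at an unadjusted p, named after their values were seen, belong to DNA replication: Tyms, for thymidylate synthase (log2 fold change −0.89 ± 0.31, edgeR adjusted p = 0.138), Cdt1, for a replication licensing factor (−0.46 ± 0.16, adjusted p = 0.137), and Mcm4, for a helicase subunit (−0.32 ± 0.12, adjusted p = 0.170). Top2a, the DNA topoisomerase of dividing cells, was at 44.4, 39.2 and 69.3 CPM in infant libraries, against 6.55, 13.6 and 10.0 CPM in adult libraries (log2 fold change 2.35 ± 0.29, edgeR adjusted p = 3.92e-04). Mki67, the usual marker of cycling cells, was at 10.3, 14.8 and 27.5 CPM in infant libraries, against 0.485, 3.41 and 0.855 CPM in adult libraries. Infant replicate 3 had the highest value of H1f0, of Top2a and of Mki67. In adults the order differed, with H1f0 highest in replicate 1 and Top2a and Mki67 highest in replicate 2, the library of high density at untested genes, where Mki67 had 12 counts. Nusap1 and Ccna2 rose by 2.80 ± 0.60 and 3.34 ± 0.84 on the log2 scale. The count of 4 was 10 without adult replicate 2 and 2 without infant replicate 2 or 3 or adult replicate 1 or 3. The part of cycling cells in the level of H1f0 was not tested.

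**Figure D4:**
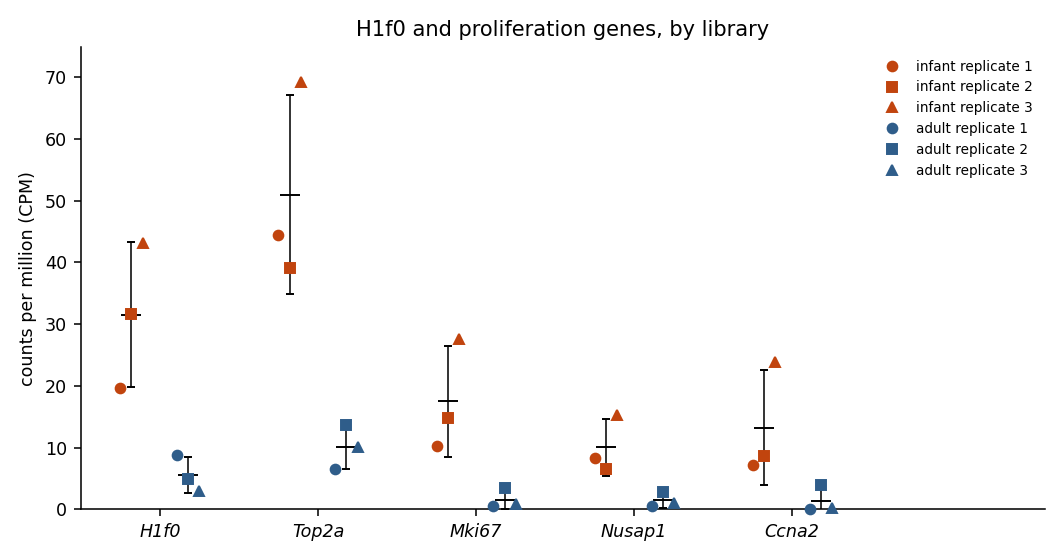
CPM of H1f0 and of the 4 proliferation genes that rose, in infant (orange, left) and adult (blue, right) libraries, with bars for the mean ± SD. Lower ends of bars under 0 are cut at the axis. Every infant point of each of the 5 genes lies above its adult points.

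Other histone genes gave few counts. The table held 101 further histone symbols, and 65 of them were counted at least once. Of the 9 tested, 0 passed in edgeR, with 1 higher and 3 lower at an unadjusted p under 0.05 and a median log2 fold change of −0.22. The share of all tested genes under that unadjusted limit was 17.3%. The highest of them, Cenpa, which encodes the H3 variant of the centromere, was at 56.1 ± 3.41 CPM in infant and 51.9 ± 11.5 CPM in adult libraries (SD, n = 3 each; log2 fold change 0.12 ± 0.18, edgeR adjusted p = 0.806). DESeq2 called 1 gene lower, and limma-voom called 0. That gene was Hist1h4i, a core H4 gene named after its values were seen, at 2.93, 1.69 and 3.38 CPM in infant libraries, against 6.79, 6.53 and 12.4 CPM in adult libraries (log2 fold change −1.68 ± 0.48, edgeR adjusted p = 0.0723, DESeq2 adjusted p = 0.0441).

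Genes for proteins that carry and place histones were counted in the same way. Among 32 tested histone chaperones and exchange factors 0 passed in edgeR, DESeq2 or limma-voom (5 higher and 0 lower at an unadjusted p under 0.05, median log2 fold change 0.025). The 5 are a share near the 17.3% of all tested genes at that limit. They were Atrx, Anp32e, Chaf1b, Nasp and Cabin1, and all but Atrx were named after their values were seen. Atrx, a remodeler that works with Daxx to place H3.3, was at 468 ± 16.5 CPM in infant and 378 ± 37.9 CPM in adult libraries (log2 fold change 0.31 ± 0.11, edgeR adjusted p = 0.134). Cabin1 belongs to the HIRA complex that places H3.3 at genes, and it had a log2 fold change of 0.37 ± 0.14 (adjusted p = 0.194). Hira and Daxx themselves, also named after their values were seen, did not rise. They had −0.37 ± 0.31 and −0.07 ± 0.13 (edgeR adjusted p = 0.599 and 0.852). Over the 32 genes, 18 fold changes were positive and 14 negative. Anp32e, which takes H2A.Z off chromatin, had 0.35 ± 0.13 (adjusted p = 0.163). Npm1, the nucleolar chaperone and the highest of the list by the mean over both ages, was at 454 ± 19.3 CPM in infant and 508 ± 33.4 CPM in adult libraries (−0.16 ± 0.10, adjusted p = 0.452).

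Of 11 tested genes for the transcription and 3′ processing of histone messages 0 passed with any of the 3 tools (1 higher and 0 lower at an unadjusted p under 0.05, median 0.035). Cpsf3, the nuclease that cuts the messages, was at 248 ± 38.6 CPM in infant and 240 ± 11.9 CPM in adult libraries, and Ncbp1, of the cap-binding complex, had a log2 fold change of 0.33 ± 0.11 (edgeR adjusted p = 0.141). Of 15 tested genes of signalling through phosphorylated H2A.X 0 passed with any of the 3 tools (1 higher and 2 lower at an unadjusted p under 0.05, median −0.15). Baz1b, a kinase for H2A.X, was at 108 ± 33.2 CPM in infant and 114 ± 20.8 CPM in adult libraries, and Ppp4c, a subunit of a phosphatase for it, at 128 ± 68.0 CPM and 136 ± 48.6 CPM in infant and adult libraries. Of 7 tested high mobility group genes, whose proteins compete with linker histones for nucleosomes, 0 passed with any of the 3 tools (1 higher and 0 lower at an unadjusted p under 0.05, median 0.18). Hmgn1 and Hmgb1 had log2 fold changes of −0.028 ± 0.14 and 0.18 ± 0.13 (edgeR adjusted p = 0.950 and 0.530). Beside the counts of these lists at an unadjusted p under 0.05 (edgeR) stands the share of all tested genes, 17.3% in either direction.

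The search for genes of like pattern took in 7340 candidates with a mean of 20 CPM or more at the age where they were higher. The 5 whose centred log2 CPM followed that of H1f0 most closely over the 6 libraries were Nedd4, Atf6, Capn3, Adam19 and Igf2bp3, with root mean square differences of 0.44 to 0.59 on the log2 scale. Nedd4, a ubiquitin ligase gene, was at 25.5, 34.8 and 57.0 CPM in infant libraries, against 6.06, 9.94 and 4.49 CPM in adult libraries. Its order over the 3 libraries was that of H1f0 in infants and differed from it in adults. The 4 most like H3f3b were Gm5547, Anxa6, Dhodh and Matk, at 0.048 to 0.063. A closer match is easier for H3f3b, whose values vary less. This likeness is a description over libraries that differ by age.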

How the data were processed

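RNA of CD4+ T cells was sequenced in 3 infant and 3 adult libraries. Per the submitters' processing notes, alignment used STAR 2.5.4 and counting used featureCounts, on mm10. The sources used here do not give the annotation release, the strand setting or how reads with several matches were handled. The table deposited by the authors holds raw counts per gene symbol, not normalized. It carries no molecular identifiers, so counts include PCR copies.

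The main test was that of edgeR 4.0.16, run in R 4.3.3 (quasi-likelihood F test, filterByExpr with a minimum count of 10 and a minimum total of 15, TMM, no covariate) over 11681 genes, and adjusted p-values (Benjamini-Hochberg) under 0.05 passed. Fold changes put infant over adult on the log2 scale. Their SE was taken from F, as the size of the change over the root of F. A floor of 3 counts was 0.628 to 0.852 CPM, for counting error only. Replicates of 1 age differed by 5.4 to 11.5 in chi-square per degree of freedom, where counting noise alone is near 1. PCR copies can raise this value too, so it cannot tell separate mice from repeats of 1 sample. Each library was treated as a separate mouse. Alternatives were DESeq2 1.42.0, limma-voom (limma 3.58.1), other scalings and filters, a replicate block, a threshold of 0.01 and leaving out each library. The code was tested on simulated counts.

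Positions, transcript lengths, stem-loops and shared runs of 25 bases came from GENCODE M21 (mm10), and promoters from RefSeq on GRCm38.p6. The 10 genes, the lists beside them and the pairs for ratios were chosen with earlier results of these data known. Named from each list were the genes that passed, at most 4 per direction by p, or the 2 of highest mean CPM where none passed. Genes outside this rule are given in the text as named after their values were seen. For each of the 10 that passed, the 5 tested genes of nearest centred log2 CPM (prior count 2) and at least 20 CPM were named, except 1 for H3f3b that is not reported here.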

Additional observations from a re-analysis of the deposited data

How the results depend on the processing

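H1f0 and H3f3b were the members called, both higher, under each of 13 alternatives (DESeq2 size factors or library totals in edgeR, no filter, a stricter filter, DESeq2, limma-voom, the replicate block and each library left out) and at an adjusted p under 0.01. The stricter filter left out Hist1h2bc. Of 129 refitted fold changes of the 10 genes, 123 kept their sign and side of the threshold and 6 turned sign, none of a called gene. H2afz was −0.023, but 0.02 with no filter, 0.0073 and 0.044 without infant replicates 1 and 3, and 0.033 and 0.06 without adult replicates 1 and 2, and leaving out any 1 library gave −0.15 to 0.06. Hist1h1c was −0.41 to 0.28 with 1 library left out, the 0.28 without adult replicate 1. The cause was not tested.

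Over all genes 425 passed, 162 at 0.01, 622 with DESeq2 and 139 to 488 with 1 library left out, most without adult replicate 2. The proliferation count of 4 was 9 with no filter and 2 to 10 with 1 library left out. Other histone genes passing were 1 with the stricter filter and 1 with DESeq2, Hist1h4i each time. Same-numbered libraries did not deviate together from the means of their ages (correlations −0.0471, −0.0108 and −0.0919). Infant and adult libraries of unlike number had −0.0273 to 0.0757. A pairing that touches few genes would not show in such correlations, so they cannot decide whether the numbers pair the libraries. With the replicate block 326 genes passed, among them 2 of the 10. The ratios kept their direction with a prior count of 2 and with any library left out, within 1 SD. Depth limits Hist1h2bc most, with 12 counts in infant and 44 in adult libraries.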
